A study of Mus musculus with 2 samples.

Results

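The 9 genes examined here write, maintain and remove CpG methylation in the mouse: Dnmt1, Uhrf1, Dnmt3a, Dnmt3b, Dnmt3l, Tet1, Tet2, Tet3 and Tdg. They were taken by name from RefSeq, each locus running from 5 kb outside the gene start to 5 kb outside the gene end. Of the 1030368 CpGs read 10 times or more in each library, 941 lay in these 9 loci, out of 27025 genes with a listed start. CpG methylation had been measured by bisulfite sequencing in 2 lines of mouse haploid embryonic stem cells, A129-2 (strain background 129Sv) and AOS-14 (strain background C57BL/6). Both lines were obtained by cell sorting from AG-haploid embryos and kept in embryonic stem cell medium, and no treatment is named for either. There was 1 library per line, so nothing below was checked in replicates, each test sets the reads of 1 library against those of the other, and line and strain cannot be told apart.

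Methylation of CpGs in mammals is copied at each cell division by the maintenance methyltransferase DNMT1, which UHRF1 brings to hemimethylated DNA behind the replication fork. DNMT3A and DNMT3B add methyl groups to unmethylated DNA, and the catalytically inactive DNMT3L stimulates them. TET1, TET2 and TET3 oxidise 5-methylcytosine, and the glycosylase TDG cuts out the most oxidised forms so that base excision repair can restore cytosine. Embryonic stem cells are known to express most of these genes, and their global methylation level is known to move with culture conditions. Bisulfite sequencing reads 5-methylcytosine and 5-hydroxymethylcytosine alike. No transcript or protein was measured in these libraries, so the values below are the methylation of the genes' own DNA and not their activity.

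The genes of the methylation machinery were low in methylation in both lines, and lower in A129-2 at most of their CpGs. The mean CpG level (methylated reads over all reads) over the 941 CpGs was 7.62% in A129-2, against 11.3% in AOS-14. Of these CpGs, 528 were lower in A129-2, 196 were higher and 217 were equal. Levels of at least 50% were reached by 9 of the 941 CpGs in A129-2 and 39 in AOS-14. Of all compared CpGs, 1.02% reached that level in A129-2 and 6.09% in AOS-14. No methylated read was seen at 377 of the 941 CpGs in A129-2 and 296 in AOS-14. The shares of lower CpGs and of CpGs without a methylated read among all compared CpGs were not computed. Over all compared CpGs the means were 9.48% in A129-2, against 14.998% in AOS-14, at a median of 79 reads per CpG for A129-2 and 97 for AOS-14. Of the 941 CpGs, 475 lay within 0.5 kb of a listed start, where CpGs of all genes were low too (2.93% in A129-2, against 3.77% in AOS-14). The libraries held 153035567 read calls in A129-2 and 178315194 in AOS-14.

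Positions are those of GRCm38.p6, the assembly of mm10. Dnmt1 spans chr9:20907206-20959888 on the minus strand, and Uhrf1 chr17:56303337-56323486 on the plus strand. Dnmt3a spans chr12:3801559-3914443, Dnmt3b chr2:153649411-153687730 and Dnmt3l chr10:78042287-78063622, all on the plus strand. Tet1 spans chr10:62804570-62887469, Tet2 chr3:133463677-133545136 and Tet3 chr6:83362373-83457208, all on the minus strand, and Tdg chr10:82629814-82650799 on the plus strand. The loci overlap the annotated spans of neighbours, among them the antisense gene Dnmt3aos at Dnmt3a, Aire at Dnmt3l, Arrdc5 and Kdm4b at Uhrf1, Bola3 at Tet3 and Glt8d2 at Tdg. These neighbours were listed by span, whether or not a compared CpG lay in the overlap. Exon bounds were not used here.

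Loci differed in how much of them was seen and in how low they were. Dnmt3a had the most compared CpGs, 285 of them, and Dnmt3l the fewest, 7. The mean level of a locus ran between 4.08% at Tdg and 17.0% at Dnmt3l in A129-2, and between 7.11% at Tet2 and 28.2% at Dnmt3l in AOS-14. The ratio of A129-2 to AOS-14 was 0.523 at Tdg, 0.574 at Tet1, 0.580 at Uhrf1, 0.603 at Dnmt3l, 0.608 at Dnmt1, 0.625 at Tet2, 0.696 at Dnmt3b, 0.717 at Tet3 and 0.808 at Dnmt3a, against 0.632 over all compared CpGs. A129-2 was thus the lower line at each of the 9 loci. Of the 39 compared CpGs of Tdg, 32 lay in its start window. With at least 20 reads per CpG the difference of that window was 1.17 points, of the other sign. The median depth of a locus lay between 39 reads (Tdg) and 127 reads (Tet2) in A129-2 and between 40 reads (Tdg) and 126.5 reads (Dnmt1) in AOS-14.

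**Figure D1:**
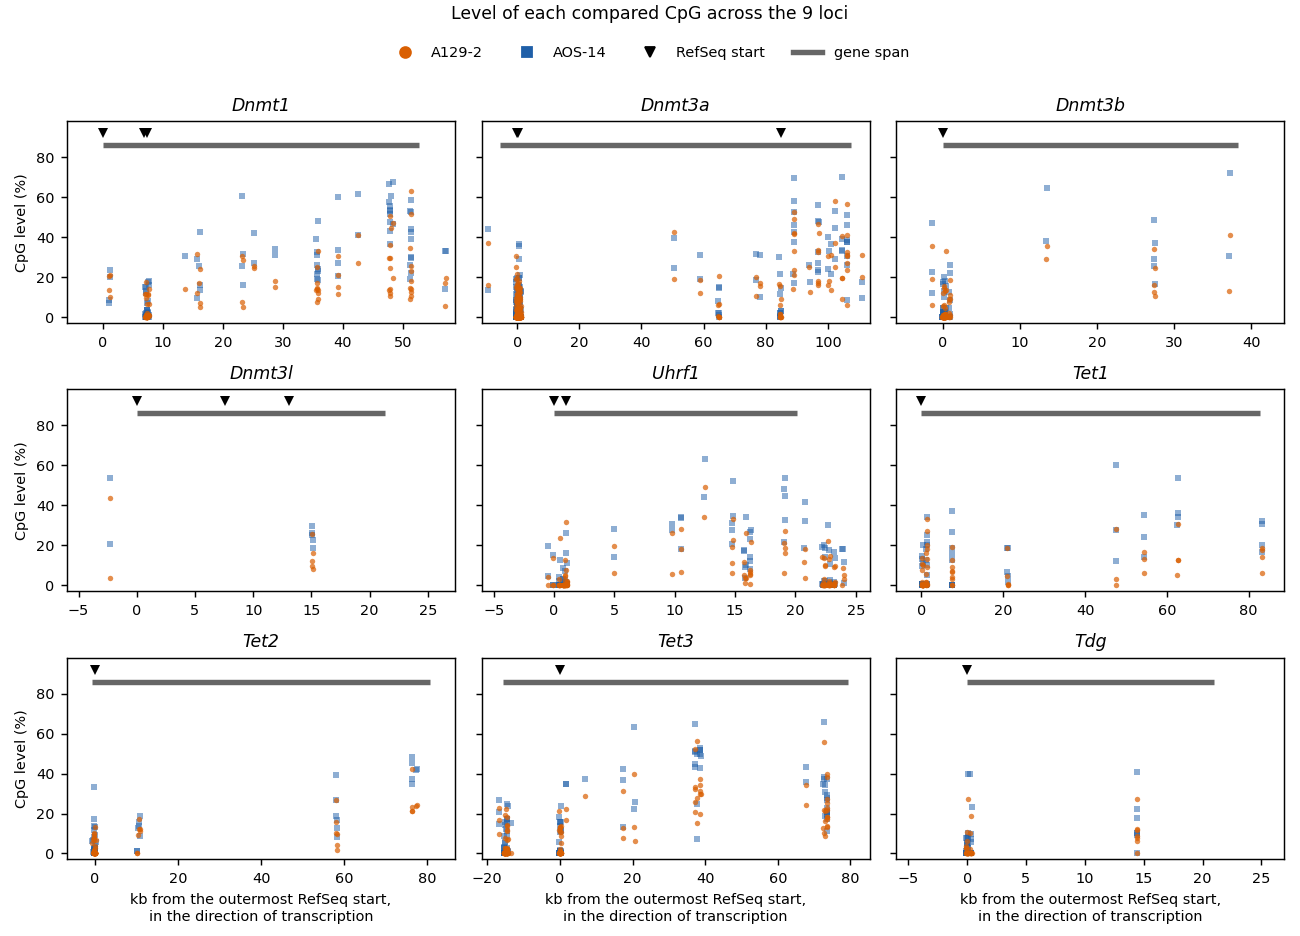
Methylation level (%, vertical axis) of each compared CpG along the 9 loci, with the distance in kb from the outermost RefSeq start in the direction of transcription on the horizontal axis. Orange circles are A129-2, blue squares AOS-14, black triangles RefSeq starts and grey bars the annotated gene span. Within 0.5 kb of a start most CpGs lie close to 0 in both lines. The 78 CpGs in CCGG there average 11.6% in A129-2, against 14.8% in AOS-14. CpGs inside the genes reach at most 63.0% in A129-2, against 72.1% in AOS-14.

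Methylation of a CpG-rich promoter is the form most closely tied to silencing. RefSeq lists 16 starts for the 9 genes, and sequences around 7 of them show what could be read: a pair of starts each for Dnmt1 and Dnmt3a, the most CpG-dense start (Tet2), the start with the lowest ratio of the lines (Tdg), and a start with no compared CpG (Dnmt3l). Each sequence runs 5′ to 3′ along the gene's strand from 250 bases before the start to 50 bases after it, is RefSeq's for GRCm38.p6, and has in capitals the CpGs compared in both libraries. Start 1 of Dnmt1 lies at chr9:20959839-20960138 and its start 3 at chr9:20952574-20952873, both on the minus strand. Start 1 of Dnmt3a lies at chr12:3806730-3807029 and its start 3 at chr12:3891494-3891793, both on the plus strand. Start 1 of Dnmt3l lies at chr10:78042037-78042336 on the plus strand, the start of Tet2 at chr3:133544341-133544640 on the minus strand, and the start of Tdg at chr10:82629588-82629887 on the plus strand.
Dnmt1 start 1: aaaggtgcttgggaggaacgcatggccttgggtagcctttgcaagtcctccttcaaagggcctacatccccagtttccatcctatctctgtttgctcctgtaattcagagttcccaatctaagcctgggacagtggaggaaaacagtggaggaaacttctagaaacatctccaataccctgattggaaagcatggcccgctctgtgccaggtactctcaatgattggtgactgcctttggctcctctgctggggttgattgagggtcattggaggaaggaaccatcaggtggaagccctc
Dnmt1 start 3: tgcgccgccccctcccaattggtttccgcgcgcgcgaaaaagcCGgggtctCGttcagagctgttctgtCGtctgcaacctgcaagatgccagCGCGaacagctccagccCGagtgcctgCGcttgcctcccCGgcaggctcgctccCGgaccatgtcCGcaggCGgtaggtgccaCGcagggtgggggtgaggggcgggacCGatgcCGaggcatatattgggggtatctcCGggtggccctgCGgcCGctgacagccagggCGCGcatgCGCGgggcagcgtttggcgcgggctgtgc
Dnmt3a start 1: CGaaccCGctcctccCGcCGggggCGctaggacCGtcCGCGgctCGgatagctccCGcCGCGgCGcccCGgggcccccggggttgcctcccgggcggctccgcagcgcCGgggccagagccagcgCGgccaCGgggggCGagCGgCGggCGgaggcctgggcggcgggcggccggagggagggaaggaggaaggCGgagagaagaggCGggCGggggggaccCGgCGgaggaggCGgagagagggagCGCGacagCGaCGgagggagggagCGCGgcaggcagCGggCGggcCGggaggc
Dnmt3a start 3: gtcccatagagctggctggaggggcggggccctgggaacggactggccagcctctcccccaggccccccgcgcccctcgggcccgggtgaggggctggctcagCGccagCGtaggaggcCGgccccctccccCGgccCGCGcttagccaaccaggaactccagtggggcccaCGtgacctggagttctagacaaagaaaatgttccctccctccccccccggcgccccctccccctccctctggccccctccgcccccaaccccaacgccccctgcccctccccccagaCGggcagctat
Dnmt3l start 1: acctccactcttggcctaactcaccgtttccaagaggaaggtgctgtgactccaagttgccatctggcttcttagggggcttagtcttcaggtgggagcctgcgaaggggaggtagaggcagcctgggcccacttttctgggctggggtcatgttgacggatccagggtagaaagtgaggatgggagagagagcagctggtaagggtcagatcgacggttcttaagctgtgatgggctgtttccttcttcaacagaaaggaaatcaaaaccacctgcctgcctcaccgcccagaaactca
Tet2 start 1: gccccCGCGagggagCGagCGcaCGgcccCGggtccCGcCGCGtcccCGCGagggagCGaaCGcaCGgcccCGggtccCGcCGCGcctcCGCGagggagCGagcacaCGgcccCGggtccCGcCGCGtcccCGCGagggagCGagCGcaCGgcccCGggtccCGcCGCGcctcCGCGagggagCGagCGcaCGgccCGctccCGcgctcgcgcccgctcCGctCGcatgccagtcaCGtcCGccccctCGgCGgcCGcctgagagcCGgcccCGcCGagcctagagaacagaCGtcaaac
Tdg start 1: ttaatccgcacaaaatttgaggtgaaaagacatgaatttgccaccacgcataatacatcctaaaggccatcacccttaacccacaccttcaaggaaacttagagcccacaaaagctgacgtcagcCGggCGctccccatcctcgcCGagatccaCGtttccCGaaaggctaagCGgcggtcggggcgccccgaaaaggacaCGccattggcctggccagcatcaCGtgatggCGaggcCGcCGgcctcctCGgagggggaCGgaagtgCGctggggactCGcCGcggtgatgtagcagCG

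These stretches span the range of CpG density among the 9 genes. Of the 300 bases, the Tet2 sequence holds 57 CpGs, and only 0.110% of 32851 RefSeq promoters hold more. Dnmt3a start 1 holds 46, Dnmt1 start 3 holds 33, Tdg holds 26 and Dnmt3a start 3 holds 18, against a median of 7 over all promoters (quartiles 3 and 20). Dnmt1 start 1 holds 2 CpGs and Dnmt3l start 1 holds 6, and neither library gave 10 reads at any of them. Compared CpGs numbered 53 at Tet2, 36 at Dnmt3a start 1, 21 at Dnmt1 start 3, 17 at Tdg and 8 at Dnmt3a start 3.

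Most of the Tet2 sequence before the start is a tandem repeat, visible in the run printed above. At a step of 42 bases, 77.9% of its bases equal the base 1 step further on, and 0.0639% of RefSeq promoters have a higher value at their best step. The repeat carries 1 CCGG site per unit, and the CpGs of these 4 sites, in order towards the start, had 9.68%, 7.83%, 6.67% and 13.01% in A129-2 and 8%, 11.7%, 17.1% and 13.5% in AOS-14. How the authors' alignment placed reads among units is not given in the sources used here, so single CpGs in the repeat are uncertain. Of the other starts, the highest value was 49.0%, at Dnmt3a start 2, and the median over all promoters was 34.4%.

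Short motifs were searched on both strands of the 16 promoter sequences. CCGG, the site cut by MspI in reduced representation libraries, was in 11 of 16, against 52.8% of all 32851 promoters. GGGCGG, a GC box, was in 12 of 16 (35.7% of all), and CACGTG, an E-box, in 3 of 16 (7.15%). The palindromic consensus of NRF1, which has 10 letters, was in starts 2 and 3 of Dnmt1 (0.971% of all), and TGACGTCA, a cAMP response element, in Tdg (1.79%). The 2 compared CpGs in the NRF1 match of Dnmt1 start 3 averaged 1.14% in A129-2, against 1.72% in AOS-14. The CpG in the E-box of Tdg had 0% in both lines, and that of Dnmt3a start 3 had 1.82% in A129-2, against 0.746% in AOS-14. In the listed matches, an MspI site and a GC box overlapped at Dnmt3a start 1 and at Dnmt3b. These matches describe letters, and no binding was measured.

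The promoters of the methylation machinery carried little methylation in both lines. The window of a start reached 1 kb outward and 0.5 kb into the gene and needed at least 5 compared CpGs, which 12 of the 16 starts (8 genes) had. Their median level was 2.63% in A129-2, against 3.22% in AOS-14, with ranges of 1.44% to 4.60% in A129-2 and 2.27% to 8.12% in AOS-14. Over all 13816 tested windows the medians were 2.80% in A129-2, against 3.50% in AOS-14. A129-2 was lower in 11 of the 12 windows and in 84.4% of all windows. At an adjusted p under 0.05 (Fisher's exact test on summed reads, two-sided, adjusted over all windows), 5 of the 12 passed as lower in A129-2 and 0 as higher, where the share of all windows was 28% lower and 0.659% higher. No window passed the call used here, which adds a difference of at least 25 points (0.232% of all windows were called lower and 0.0217% higher). None of the 12 had 25% in AOS-14, so a call lower by 25 points was out of reach.

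Of the maintenance genes, Dnmt1 had windows at its starts 2 and 3, which overlap. Start 2 had 2.39% in A129-2, against 3.004% in AOS-14 over 26 CpGs (Fisher's exact test, adjusted p = 0.159). Start 3 had 3.01% in A129-2, against 3.91% in AOS-14 over 37 CpGs (Fisher's exact test, adjusted p = 0.418). Start 1, in sequence poor in CpGs, had no listed CpG in either library. Dnmt1 is known to use a separate upstream first exon in oocytes, and whether start 1 serves it is not stated in the table.

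Uhrf1, whose protein recognises hemimethylated CpGs, also has overlapping windows. Start 1 had 1.90% in A129-2 (517 reads), against 4.12% in AOS-14 (574 reads) over 11 CpGs, with an adjusted p of 0.0576 in Fisher's exact test. In a test stratified by CpG (Cochran-Mantel-Haenszel), which was added after the data were seen, the same window passed with an adjusted p of 0.00563. Start 2 had 2.60% in A129-2, against 2.77% in AOS-14 over 37 CpGs (Fisher's exact test, adjusted p = 0.599). With at least 20 reads per CpG the difference at start 2 was 0.0805 points, of the other sign.

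The de novo methyltransferase Dnmt3a has 2 neighbouring starts in a long CpG-dense stretch and an internal start. Mouse embryonic stem cells are known to make mainly a short DNMT3A isoform from an internal promoter. Start 1 had 2.79% in A129-2, against 2.27% in AOS-14 over 133 CpGs, the only window of the 12 higher in A129-2 (Fisher's exact test, adjusted p = 0.142). Weighted by reads, that difference was -0.285 points. Start 2, whose window shares most of its CpGs with start 1, had 2.76% in A129-2, against 2.995% in AOS-14 over 160 CpGs and was lower in A129-2 (Fisher's exact test, adjusted p = 5.45e-04). The size of that difference was unsteady, at -0.240 points as computed, -0.0295 with at least 20 reads per CpG and -0.612 weighted by reads. The internal start 3 had 4.60% in A129-2 (587 reads), against 8.12% in AOS-14 (838 reads), the highest of the 12 in both lines. Of its 11 CpGs, 8 were lower in A129-2 and 1 was higher, and the difference did not pass (Fisher's exact test, adjusted p = 0.417).

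Dnmt3b, the other active de novo enzyme, had 2.02% in A129-2, against 2.36% in AOS-14 over 66 CpGs and was lower in A129-2 (Fisher's exact test, adjusted p = 0.0099). Outside CCGG the Dnmt3b difference was -0.353 points and did not pass. Dnmt3l, which is known to be silenced by methylation as stem cells differentiate, had no compared CpG at any of its 3 starts. At its start 1, AOS-14 had 6 reads over 3 CpGs, of which 1 was methylated, and A129-2 had none. At its start 2, A129-2 had 8 reads over 6 CpGs with 1 methylated, and AOS-14 had 2 reads with 0 methylated. A level of the Dnmt3l promoter was therefore not detectable at this depth.

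The genes of methylation removal were also low at their starts. Tet1, prominent in embryonic stem cells, had 2.07% in A129-2, against 3.44% in AOS-14 over 21 CpGs (Fisher's exact test, adjusted p = 0.659). Tet2 had 1.44% in A129-2 (10218 reads), against 2.50% in AOS-14 (7618 reads) over 67 CpGs and was lower in A129-2 (Fisher's exact test, adjusted p = 1.94e-04). Tet3, known for oxidising the paternal genome in the zygote, had 3.02% in A129-2, against 3.72% in AOS-14 over 43 CpGs and was lower in A129-2 (Fisher's exact test, adjusted p = 0.0311). Tdg had 2.66% in A129-2 (1203 reads), against 6.07% in AOS-14 (1471 reads) over 32 CpGs and was lower in A129-2 (Fisher's exact test, adjusted p = 0.0322). In the stratified test, run on read counts, the adjusted p of Tdg was 0.0704, so that its window no longer passed. With at least 20 reads per CpG the Tdg difference was 1.17 points, of the other sign, and outside CCGG it was -1.70 points and did not pass.

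**Figure D2:**
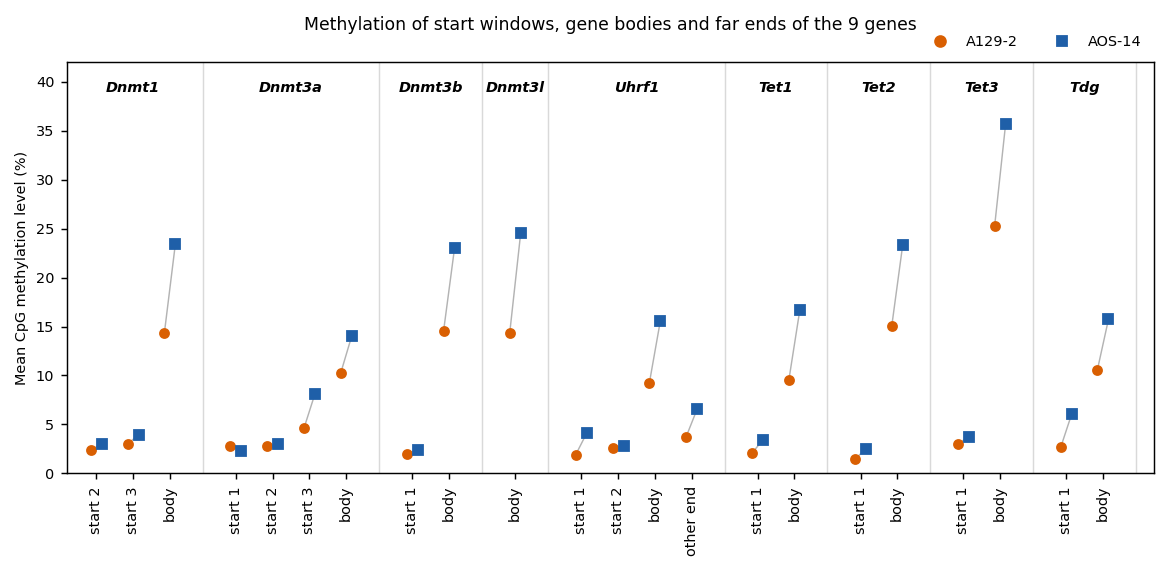
Mean CpG methylation level (%, vertical axis) of each tested start window, gene body and other end of the 9 genes (horizontal axis), with orange circles for A129-2, blue squares for AOS-14 and a grey line joining the lines; there is 1 library per line and no error bar. Start windows lie between 1.44% and 8.12%, and gene bodies between 9.18% and 25.2% in A129-2 and between 14.01% and 35.7% in AOS-14.

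Gene bodies carried more methylation than starts and differed more between the lines. The body ran from 0.5 kb inside the outermost listed start to the gene end. Its median over the 9 genes was 14.3% in A129-2, against 23.0% in AOS-14, with a median difference of -8.33 points, against 13.003% in A129-2, 20.8% in AOS-14 and -6.88 points over all 11841 tested genes. In A129-2 the bodies of 9 of 9 genes were lower, with an adjusted p under 0.05 (Fisher's exact test), where the share of all genes was 82% (and 0.557% higher). The stratified test gave 9 of 9 too, where its share of all genes was 83.8%. No body passed the call of 25 points, as 1.38% of all did lower and 0.00845% higher. Only 1 of the 9 bodies had at least 25% in AOS-14, so a call lower was out of reach for the rest. The median ratio of A129-2 to AOS-14 was 0.630 for the 9 genes and 0.655 for all.

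Among the maintenance genes, the Dnmt1 body had 14.3% in A129-2, against 23.4% in AOS-14 over 95 CpGs (Fisher's exact test, adjusted p = 1.26e-80). Its starts 2 and 3 lie inside that body. Without the windows of further starts, an alternative chosen after seeing the data, 58 CpGs remained and had 21.5% in A129-2, against 35.9% in AOS-14. The Uhrf1 body had 9.18% in A129-2, against 15.5% in AOS-14 over 62 CpGs (Fisher's exact test, adjusted p = 1.22e-33), and 15.4% in A129-2, against 28.0% in AOS-14 over the 31 CpGs outside further starts. All of these 31 CpGs were lower in A129-2.

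Among the de novo genes, Dnmt3a had a body level of 10.2% in A129-2, against 14.01% in AOS-14 over 148 CpGs (Fisher's exact test, adjusted p = 2.64e-53). Outside further starts, 110 CpGs had 12.7% in A129-2, against 16.4% in AOS-14. Dnmt3b had 14.5% in A129-2, against 23.0% in AOS-14 over 19 CpGs (Fisher's exact test, adjusted p = 8.83e-34). Dnmt3l was read at 5 CpGs, with 246 reads in A129-2 and 286 in AOS-14, and had 14.3% in A129-2, against 24.5% in AOS-14 (Fisher's exact test, adjusted p = 0.00313). All 5 of these CpGs were lower in A129-2.

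Among the genes of removal, Tet3 had a body level of 25.2% in A129-2, against 35.7% in AOS-14 over 43 CpGs (Fisher's exact test, adjusted p = 2.67e-63). Tet1 had 9.54% in A129-2, against 16.7% in AOS-14 over 38 CpGs (Fisher's exact test, adjusted p = 2.95e-42). Tet2 had 15.03% in A129-2, against 23.4% in AOS-14 over 19 CpGs (Fisher's exact test, adjusted p = 2.06e-12). Tdg was read at 7 body CpGs and had 10.6% in A129-2, against 15.7% in AOS-14 (Fisher's exact test, adjusted p = 8.80e-06). Over bodies as defined here, 1 of the 9 (Tet3) had at least 25% in AOS-14, as 38.0% of all tested bodies had. The Tet3 body leaves out the annotated 5′ part of the gene beyond its only listed start. CpG-dense runs there had 4.82%, 1.81% and 1.95% in AOS-14, so the Tet3 level depends on where its start is listed. Outside further starts, 3 of the 9 (Tet3, Dnmt1 and Uhrf1) did, as 41.6% of all did.

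Flanks of the genes were thinly covered. Of the other ends, from the gene end to 5 kb outside it, only that of Uhrf1 had 5 compared CpGs. It had 3.69% in A129-2, against 6.53% in AOS-14 over 49 CpGs and was lower in A129-2 (Fisher's exact test, adjusted p = 1.80e-07), as 63% of all tested other ends were (1.16% were higher). The annotated span of Kdm4b, a histone demethylase gene, begins in that flank. The 3 CpGs beyond Dnmt1 had 13.98% in A129-2, against 26.8% in AOS-14, and the 4 beyond Tet1 had 14.3% in A129-2, against 24.8% in AOS-14. Beyond Dnmt3a, A129-2 was the higher line, with 25.5% in A129-2, against 13.5% in AOS-14 over 2 CpGs, both in CCGG. No flank from 5 kb to 1 kb outside a start had 5 compared CpGs. The 3 CpGs there at Dnmt3b had 20.3% in A129-2, against 27.3% in AOS-14, and the 2 at Dnmt3l, inside the neighbouring immune tolerance gene Aire, had 23.8% in A129-2, against 37.3% in AOS-14.

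Methylation was lowest beside starts. Within 0.5 kb of the nearest start of any gene in the promoter table, the 475 CpGs of the 9 loci averaged 2.47% in A129-2, against 3.31% in AOS-14. At 0.5 to 2 kb, 106 CpGs averaged 7.96% in A129-2, against 10.1% in AOS-14, and at 2 to 10 kb, 65 CpGs averaged 17.4% in A129-2, against 24.99% in AOS-14. Over 10 kb away, 295 CpGs averaged 13.6% in A129-2, against 21.7% in AOS-14, where CpGs of all genes averaged 15.8% in A129-2, against 25.2% in AOS-14. The stretch over 10 kb away includes CpG-dense runs at the annotated 5′ end of Tet3 and the flank of Uhrf1 with the first part of Kdm4b, which are far from the listed starts only.

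CpGs inside CCGG stood higher than others at the same distance in both lines. Within 0.5 kb of a start, the 78 CpGs in CCGG averaged 11.6% in A129-2, against 14.8% in AOS-14, and the other 397 averaged 0.673% in A129-2, against 1.06% in AOS-14. Over 10 kb away, the 116 CpGs in CCGG averaged 22.4% in A129-2, against 33.9% in AOS-14, and the other 179 averaged 7.94% in A129-2, against 13.7% in AOS-14. In the 12 promoter windows, CpGs in CCGG had 5.91% to 14.3% in A129-2 and 11.1% to 23.0% in AOS-14, and the other CpGs 0.123% to 1.22% in A129-2 and 0.214% to 2.93% in AOS-14. Over all compared CpGs, those in CCGG averaged 18.9% in A129-2, against 27.9% in AOS-14, and the others 4.74% in A129-2, against 8.49% in AOS-14. Whether library preparation at MspI ends contributes was not tested. With CCGG left out, 3 of the 12 promoter windows were lower in A129-2 in place of 5, and of all tested promoter windows 8.603% in place of 28%.

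**Figure D3:**
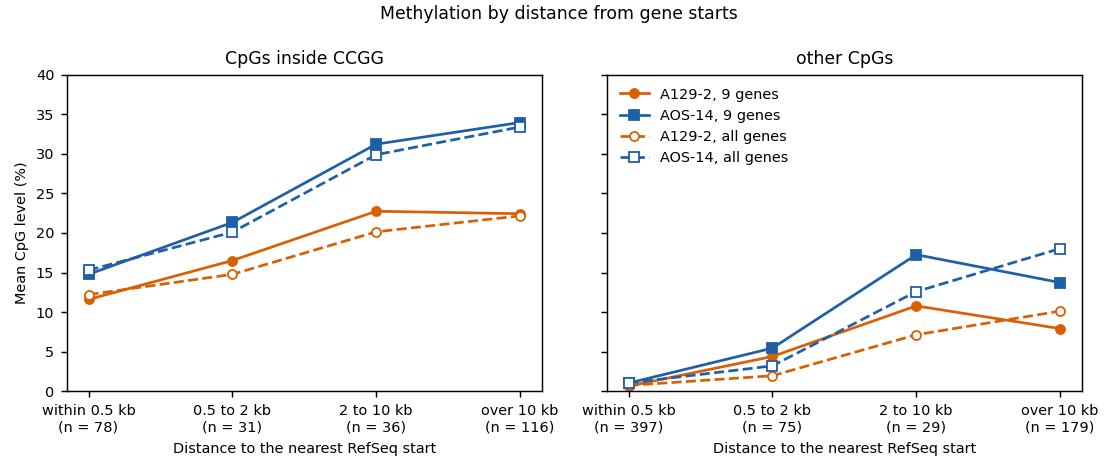
Mean CpG level (%, vertical axis) by distance to the nearest RefSeq start (horizontal axis, with the number of CpGs of the 9 genes), for CpGs in CCGG on the left and other CpGs on the right. Filled symbols and solid lines are the 9 genes, open symbols and dashed lines all genes, orange A129-2 and blue AOS-14; at other CpGs within 0.5 kb the 9 genes average 0.673% in A129-2, against 1.06% in AOS-14.

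Within the loci, compared CpGs were joined into runs with steps of at most 100 bp and at least 5 CpGs, which finds dense stretches without regard to annotation. There were 41 such runs, of which 38 had a lower mean in A129-2. The share of all runs with a lower mean was not computed. At an adjusted p under 0.05 (Fisher's exact test, adjusted over 50354 runs), 24 were lower in A129-2 and 0 higher, where the share of all runs was 52% lower and 1.14% higher. The 13 runs that overlap a window of the genes' own listed starts had median levels of 2.56% in A129-2, against 3.11% in AOS-14, and 5 of them were lower. The 28 runs away from those starts had medians of 12.8% in A129-2, against 19.6% in AOS-14, and 19 of them were lower. The shares of lower runs among all runs near and away from starts were not computed. The runs away from starts include low CpG-dense ones at the annotated 5′ end of Tet3 and in the flank of Uhrf1, none above 4.82% in AOS-14. Adding the 25-point criterion called 1 run, 2.44% of the 41, against 5.28% of all runs called lower and 0.0139% called higher.

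The called run lay inside Dnmt1 at chr9:20911958-20912216, 40.5 kb from the nearest listed start of Dnmt1 itself and towards the far end of the gene. Its 10 CpGs, 4 of them in CCGG, had a mean level of 26.6% in A129-2, against 52.6% in AOS-14, a difference of -26.0 points (Fisher's exact test, adjusted p = 1.46e-18). Along the run the levels in A129-2 were 44.6%, 50.7%, 36.2%, 14.04%, 29.8%, 10.3%, 12%, 24.8%, 29.8% and 13.6%. In AOS-14 they were 60.7%, 55.8%, 51.7%, 43.0%, 47.4%, 36.8%, 53.5%, 53.2%, 57.4% and 66.7%. A129-2 was lower at all 10 CpGs, and the gap was smallest at the second and widest at the last. Summed over reads it was 29.3% in A129-2 (652 reads, exact 95% binomial interval 25.8 to 33.0), against 51.4% in AOS-14 (1067 reads, 48.3 to 54.4), and that difference of -22.1 points does not meet the call.

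Other runs of the maintenance genes stood below the call. In Dnmt1, the run at chr9:20908498-20908680 had 25.2% in A129-2, against 37.9% in AOS-14, and that at chr9:20924101-20924332 had 16.1% in A129-2, against 28.4% in AOS-14. In Uhrf1, the run at chr17:56322377-56322497 had 17.9% in A129-2, against 40.2% in AOS-14 over 5 CpGs, a difference of -22.3 points and the second largest among the 41. At the start of Uhrf1, by contrast, the run at chr17:56303726-56303862 had the largest positive difference, 0.991 points (3.34% in A129-2, against 2.35% in AOS-14).

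In Dnmt3a, the stretch at its starts 1 and 2 formed a single run of 218 CpGs over 1763 bp, with 2.55% in A129-2, against 3.02% in AOS-14. The most methylated run of the 41 in A129-2 was also in Dnmt3a, at chr12:3895916-3896086, with 37.7% in A129-2, against 46.3% in AOS-14. Near-zero and intermediate stretches thus lay in 1 gene in both lines. In Dnmt3b the run at chr2:153676821-153676900 had 19.5% in A129-2, against 31.4% in AOS-14.

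In Tet3, 2 neighbouring runs lay near 50% in AOS-14. The run at chr6:83402926-83403147 had 30.4% in A129-2, against 49.6% in AOS-14, and that at chr6:83404466-83404529 had 32.9% in A129-2, against 50.9% in AOS-14. At the annotated far 5′ end of Tet3, away from its listed start, 3 CpG-dense runs of 29, 25 and 9 CpGs had 4.04%, 1.39% and 0% in A129-2 and 4.82%, 1.81% and 1.95% in AOS-14. These 3 runs were as low as the promoter windows. In Tet1, the run at chr10:62879791-62879879 had 6.91% in A129-2, against 12.3% in AOS-14, and the run at chr10:62885869-62886018 was higher in A129-2 by 0.642 points (15.2% in A129-2, against 14.6% in AOS-14). In Tet2, the run at chr3:133486189-133486296 had 11.3% in A129-2, against 20.5% in AOS-14. In Tet3, the run at chr6:83368002-83368133 had 23.3% in A129-2, against 23.0% in AOS-14, a difference of 0.289 points. None of the 3 runs with a positive difference passed the test.

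**Figure D4:**
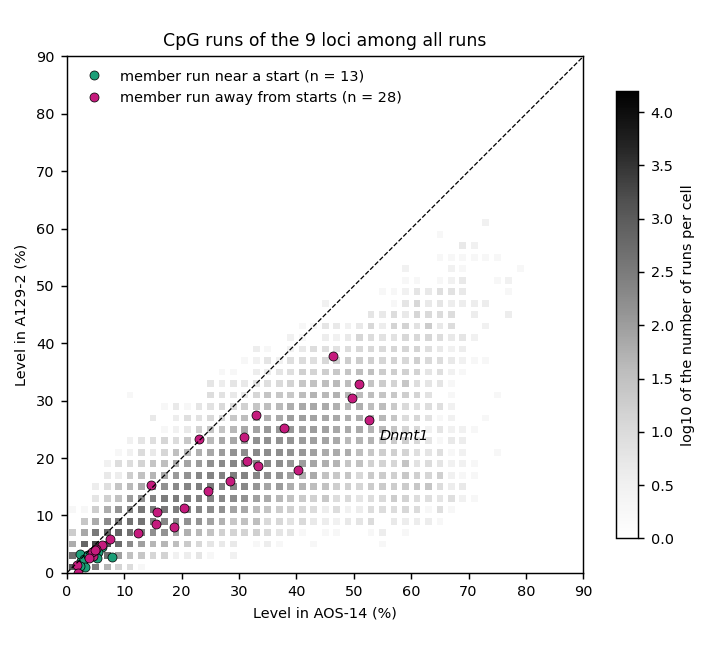
Mean level (%) of CpG runs in A129-2 (vertical axis) and AOS-14 (horizontal axis). Coloured points are the 41 runs of the 9 loci, 13 near a start (green) and 28 away from starts (magenta), grey cells are all 50354 runs with shading by the log10 number per cell, the dashed line marks equal levels, and the run marked Dnmt1 is the called one at 26.6% in A129-2, against 52.6% in AOS-14.

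Single CpGs were tested as well. Of the 941 CpGs, 17 were called lower in A129-2 (adjusted p under 0.05 by Fisher's exact test and at least 25 points), which is 1.81%, against 4.08% of all compared CpGs. None was called higher, as 0.0297% of all were. With no minimum difference, 85 were lower (9.03%, against 12.9% of all) and 2 higher (0.154% of all). Dnmt1 held 9 of the 17 called CpGs, Uhrf1 held 4, and Dnmt3a, Dnmt3b, Tet2 and Tet3 held 1 each, while Dnmt3l, Tet1 and Tdg held 0. Of the 17, 16 lay over 10 kb from any listed start, which is 5.42% of the 295 CpGs there, against 6.25% for CpGs of all genes. Within 2 kb of a start lay 0 of them, where 0.141% (within 0.5 kb) and 1.02% (0.5 to 2 kb) of CpGs of all genes were called lower. The median CpG of the 9 loci within 0.5 kb had 0.610% in AOS-14, so a call lower by 25 points was out of its reach.

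The largest single differences were in the called run of Dnmt1. The CpG at position 20912216 of chromosome 9 had 13.6% in A129-2 (22 reads, exact 95% interval 2.91 to 34.9), against 66.7% in AOS-14 (39 reads, 49.8 to 80.9; Fisher's exact test, adjusted p = 0.0018). The CpG at 20912113 had 12% in A129-2, against 53.5% in AOS-14 (Fisher's exact test, adjusted p = 0.00812). The third, at position 62839731 of chromosome 10 in Tet1, had 28.0% in A129-2, against 60.0% in AOS-14 and did not pass (Fisher's exact test, adjusted p = 0.0974).

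In the other direction, the CpG at position 153649798 of chromosome 2, near the start of Dnmt3b, had 33.3% in A129-2 (18 reads), against 4.35% in AOS-14 (23 reads; Fisher's exact test, adjusted p = 0.173). The CpG at 3806528 of chromosome 12, near start 1 of Dnmt3a, had 30.8% in A129-2 (13 reads), against 8.33% in AOS-14 (48 reads; Fisher's exact test, adjusted p = 0.266). The CpG at 3918051, beyond the end of Dnmt3a, had 31.1% in A129-2 (222 reads), against 9.45% in AOS-14 (127 reads) and was higher in A129-2 (Fisher's exact test, adjusted p = 6.67e-05). All 3 were CpGs in CCGG. The other CpG that passed with no minimum difference and was higher in A129-2 lay at 3806861, near start 1 of Dnmt3a, outside CCGG, with 16.7% in A129-2 (30 reads), against 0.905% in AOS-14 (221 reads; Fisher's exact test, adjusted p = 0.00403). Beside the minimum of 10 reads, the 7 CpGs whose less covered library had 10 reads averaged 12.4% in A129-2, against 17.7% in AOS-14, and the 13 at 9 reads, which were left out, averaged 7.99% in A129-2, against 11.05% in AOS-14.

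A wider list of 39 genes of methylation and its removal, of which 29 had a start in the promoter table, was read in the same way. Of 23 tested promoter windows, 20 had a lower mean in A129-2 and 3 were lower at an adjusted p under 0.05 (13.04%, against the 28% of all windows given above). Their medians were 2.43% in A129-2, against 3.12% in AOS-14. The largest promoter differences were at Trdmt1, a tRNA methyltransferase gene, with 1.59% in A129-2, against 4.07% in AOS-14, at Idh2, a source of the TET cofactor 2-oxoglutarate, with 2.42% in A129-2, against 4.202% in AOS-14, and at the stress gene Gadd45a, with 1.45% in A129-2, against 3.07% in AOS-14. Of these only Idh2 passed (Fisher's exact test, adjusted p = 0.00114). Positive differences were at Idh1, with 2.46% in A129-2, against 2.03% in AOS-14, at Parp1, with 3.92% in A129-2, against 3.50% in AOS-14, and at Usp7, a deubiquitinase that stabilises UHRF1 and DNMT1, with 2.83% in A129-2, against 2.51% in AOS-14, and none of these 3 passed.

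Of 24 tested gene bodies of the wider list, 17 were lower in A129-2 (70.8%, against the 82% of all bodies) and 1 was higher. Their medians were 6.50% in A129-2, against 10.6% in AOS-14. The body higher in A129-2, chosen after its values were seen, was that of Zfp57, a zinc finger gene that protects imprints, with 6.52% in A129-2 (75 reads), against 0.889% in AOS-14 (231 reads) over 6 CpGs (Fisher's exact test, adjusted p = 0.0139). The shares of lower bodies and promoters in this list did not stand above those of all genes.

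A median profile of 6 values (window of start 1, body and other end in each line) was set against other genes. It was 2.07%, 14.3% and 14.1% in A129-2 and 3.44%, 23.0% and 19.2% in AOS-14. The window of start 1 had values in 7 of the 9 genes, so its median differs from that of the 12 windows. The other end had values in 4 genes, 3 of them with under 5 compared CpGs, so the profile stands for few genes there. Among 1819 genes with all 6 values, the closest was Pex6, a peroxisome biogenesis gene, with a root mean square distance of 0.581 points. Dmwd followed at 0.863 points and Csnk1g2, a casein kinase gene, at 1.13 points.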

How the data were processed

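Bisulfite libraries of 2 haploid embryonic stem cell lines, 1 per line, were analysed. Per the labels' protocols, mouse sequence was enriched with a capture panel for methylation and read as paired 50 bp reads. The title of the series names reduced representation bisulfite sequencing instead. Per the submitters' processing notes, BSMAP and mm10 were used. For the version, trimming, duplicates and multiply aligned reads, the treatment is not given in the sources used here.

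The authors deposited, per the file headers, for each CpG the methylation level as a fraction, and counts of all and of methylated reads. Levels in percent were computed anew from the deposited counts. Positions were raised by 1. The deposited fraction equalled the ratio of counts within 0.0005 at all listed CpGs (1699405 in A129-2 and 1819756 in AOS-14). Of these, 1065668 and 1165015 had at least 10 reads.

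Starts came from the RefSeq promoter table of GRCm38.p6. All 238 compared CpGs in the member promoter sequences fell on CG there. A level is the mean over CpGs and a difference, in percentage points, is that of A129-2 less that of AOS-14. Reads of each unit with at least 5 CpGs were summed and compared by a two-sided Fisher's exact test, and p-values were adjusted after Benjamini and Hochberg over all units of that kind in the genome. A call needed an adjusted p under 0.05 together with at least 25 points. The tests and exact 95% binomial intervals (Clopper-Pearson) cover counting error only, and PCR copies are not independent molecules. The build derives from C57BL/6, and the effect of 129Sv base variants at CpGs was not tested. Summed reads can also differ where the libraries' depths differ among CpGs, which the stratified test takes into account. The scripts were tested on simulated data and ran in Python 3.11.15 with numpy 2.4.6, pandas 2.3.3, scipy 1.17.1, numba 0.67.0 and matplotlib 3.10.9. On unchanged simulated units, a bound was set for the stratified test and for the call of 25 points. None was set for Fisher's exact test on summed reads without a minimum difference.

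The members and lists were chosen with earlier results of these data known. All 9 members are named in each segment. Also named are called runs, the 3 runs and CpGs with the largest difference in each direction, and the 3 genes with the largest promoter difference in each direction from the wider list, of which 10 genes were not analysed here. The 3 genes nearest to the members' median profile are named as well. Alternatives varied the minimum of reads, CpGs and points, weighting, window bounds, run steps and CCGG. The stratified test, and bodies without further starts, were added after the data were seen.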

Additional observations from a re-analysis of the deposited data

Results flagged for a closer look

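Reads were found at Dnmt3l CpGs that the comparison left out because 1 or both libraries had under 10 reads there. In A129-2, 6 of 55 reads over 29 such CpGs were methylated, which is 10.9% (exact 95% interval 4.11 to 22.2). In AOS-14, 13 of 69 reads over 31 such CpGs were methylated, which is 18.8% (10.4 to 30.1). They are listed because they belong to no comparison and more than 3 reads were methylated in each line, which says nothing further of their level, and the intervals cover counting error only. The 29 CpGs of A129-2 and the 31 of AOS-14 are not all the same positions. The 2 percentages therefore do not set the lines against each other at the same CpGs, and the intervals overlap. The difference between the lines was not tested here.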

How the results depend on the processing

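Gene bodies kept their direction and side of the threshold in each of the 87 values computed under alternatives, and so did the Uhrf1 other end in its 9. Of 132 promoter values, 123 did so, 5 lost the threshold, 1 gained it and 3 changed sign: with at least 20 reads per CpG, Uhrf1 start 2 (0.0805 points) and Tdg (1.17), and weighted by reads, Dnmt3a start 1 (-0.285). None of these 3 was past the threshold there. Some of the values counted here could hardly change. Another minimum of CpGs left the level of each unit still tested as it was, and weighting by reads left its p-value as it was. Bodies that could no longer be tested are not counted, namely Dnmt3l outside CCGG, and Dnmt3l and Tdg with at least 10 CpGs. Outside CCGG, promoter windows lower in A129-2 numbered 3 of 12 in place of 5 of 12 (of all windows, 8.603% in place of 28.0%), with Dnmt3b and Tdg lost. Runs lower numbered 9 of 28 in place of 24 of 41 (of all runs, 31.3% in place of 52.0%), and runs called 0 in place of 1 (3.40% in place of 5.29%). CpGs called lower numbered 7 of 680 in place of 17 of 941 (3.33% in place of 4.08%). At an adjusted p under 0.01, 3 of 12 promoter windows were lower. With at least 3 CpGs, 39 of 66 runs were lower, and with at least 10 CpGs, 8 of 20 runs, since fewer or more units could be tested. With at least 3 CpGs, 3 other ends were lower (Dnmt1, Tet1 and Uhrf1), the only ones that could be tested. Called runs numbered 2 of 40 with at least 5 reads, 0 of 41 weighted by reads and 0 with steps of at most 50 bp. Weighted by reads and with those steps the Dnmt1 run differed by -22.1 and -16.7 points, and outside CCGG by -20.9. For these settings of adjusted p, CpGs, reads, weighting and steps, the shares of all units were not computed. With a minimum of 10 points, 2 of 9 bodies (31.8% of all), 10 of 41 runs (28.4% of all) and 76 of 941 CpGs (8.08%, against 11.8% of all) were called lower, and 2 CpGs higher (0.213%, against 0.102% of all). With no minimum, 5 promoter windows, 9 bodies, 1 other end, 24 runs and 85 CpGs were called lower, and 2 CpGs higher. In either direction the shares of all were then 28.7%, 82.6%, 64.2% and 53.1%, and for CpGs 12.9% lower and 0.154% higher. Differences that kept their threshold but moved by over 1.5 times included, weighted by reads, the bodies of Dnmt3a (-5.87 points), Dnmt3b (-13.1) and Tet3 (-16.2), and outside CCGG those of Dnmt3a (-1.97), Dnmt3b (-5.33) and Tet1 (-3.52). Outside CCGG the start windows of Tet2 (-0.442) and Tet3 (-0.275) and the Uhrf1 other end (-1.03) did too. The cause of these shifts was not tested beyond what each setting removes. No paired analysis was possible because each line has 1 library, and no library could be left out. Depth limited Dnmt3l most, with 7 compared CpGs.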

Other observations

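Called CpGs outside the called run of Dnmt1, chosen after their values were seen, are given here. They lay far from the starts of their genes. Over 10 kb from any listed start, 5.42% of the CpGs of the 9 loci were called lower, against 6.25% of those of all genes. In Dnmt1, the CpG at position 20920706 had 30.5% in A129-2 and 60.3% in AOS-14. At the far end of Uhrf1, the CpG at 56322493, outside CCGG, had 16.03% in A129-2 (368 reads), against 44.8% in AOS-14 (366 reads), and the CpG at 56324094, beyond the gene end, had 3.88% in A129-2 (103 reads), against 32.3% in AOS-14 (99 reads). In Dnmt3a, the CpG at 3911604 had 40.6% in A129-2 and 69.9% in AOS-14. In Dnmt3b, the CpG at 153686622 had 41.3% in A129-2 and 72.1% in AOS-14, the highest level of any compared CpG of the 9 genes in AOS-14. In Tet2, the CpG at 133468084 had 23.2% in A129-2 and 48.3% in AOS-14, and in Tet3 the CpG at 83369058 had 10.1% in A129-2 and 37.1% in AOS-14.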
